A study of Mus musculus with 6 samples.

Results

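The 9 genes described here are the coreceptor chains Cd4, Cd8a and Cd8b1, the chemokine receptors Ccr9, Cxcr4 and Ccr7, the egress receptor S1pr1, the activation marker Cd69 and the transcription factor Klf2. They were taken by gene symbol from the deposited tables, and all 9 were found among 43430 gene rows. RNA was sequenced from CD4+CD8+ double-positive thymocytes of C57BL/6 mice, sorted to a purity stated in the labels' protocols as above 98%. The KO group held 3 libraries from mice with the genotype Mettl14fl/fl; CD4-Cre+, and the WT group held 3 libraries from littermate controls. Mettl14 is the partner of Mettl3 in the enzyme that writes N6-methyladenosine (m6A) on RNA, and CD4-Cre drives Cre recombinase from Cd4 regulatory sequences, so the floxed gene is deleted within the T cell lineage. The labels give neither age nor sex, nor whether the controls carried Cre. They do not tie each library to its own animal. The p-values therefore cover only the spread among these 6 libraries, part of which may be technical.

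A thymocyte changes its coreceptors and its homing receptors as it matures. Double-positive cells carry both CD4 and CD8, keep to the cortex under Cxcr4, and respond to Ccl25 through Ccr9. After positive selection CD69 appears, Ccr7 directs cells to the medulla, and the transcription factor Klf2 switches on S1pr1, the sphingosine-1-phosphate receptor that mature single-positive cells need to leave the thymus.

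Counts assigned to genes ranged from 29717056 to 32334325 in KO libraries and from 29500254 to 33377056 in WT libraries. Gene coordinates are those of the deposited table, on mm10. Levels are given as CPM, counts scaled to library size after TMM normalization. Log2 fold changes are given as KO minus WT. Mettl14 was at 42.2, 40.3 and 36.4 CPM in KO libraries, against 52.1, 58.8 and 55.8 CPM in WT libraries (log2 fold change -0.49, edgeR adjusted p = 0.289). The count spans the whole gene, including any exons outside the floxed part, which the labels do not name. All 9 defining markers of double-positive cells were present, the lowest (Cd1d1, named after its value was seen) at a mean of 73.5 CPM. The first principal component, with 42.3% of the variance, set WT replicate 1 apart: it scored -27.2, and the other 5 libraries between -6.36 and 17.5.

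The 9 genes differed widely in level. To compare genes, CPM was divided by the length in kilobases of each gene's principal protein-coding transcript. Cd8b1 had the highest level, at 1376 ± 42.3 CPM per kb in KO and 1286 ± 133 CPM per kb in WT (SD, n = 3 each). Cd8a followed at 957 ± 41.2 in KO and 995 ± 56.7 CPM per kb in WT, and then Cd4 at 660.0 ± 59.0 in KO and 633 ± 55.0 CPM per kb in WT. Ccr9 (206 ± 24.8 in KO and 205 ± 10.9 CPM per kb in WT) and Cxcr4 (220.4 ± 17.9 in KO and 184 ± 26.8 CPM per kb in WT) came next. Their libraries overlapped, so the order of these neighbours is not fixed. Cd69 lay about an order of magnitude lower, at 22.6 ± 3.61 in KO and 22.3 ± 3.55 CPM per kb in WT.

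The genes of the mature stage were lowest. Ccr7 was at 4.06 ± 1.54 in KO and 4.22 ± 0.482 CPM per kb in WT, Klf2 at 1.56 ± 0.857 in KO and 2.47 ± 0.470 CPM per kb in WT, and S1pr1 at 0.376 ± 0.204 in KO and 0.223 ± 0.0378 CPM per kb in WT. Apart from Ccr9 and Cxcr4, no library of a gene overlapped any library of its neighbour in this order. Summed over the 3 genes Ccr7, S1pr1 and Klf2, the level was 8.19, 10.3 and 17.8 CPM in KO libraries, against 15.3, 11.9 and 13.6 CPM in WT libraries. The 3 coreceptor chains summed to 7243, 7328 and 6681 CPM in KO libraries, against 7609.5, 6759.9 and 6597 CPM in WT libraries. In sorted bulk RNA, fewer cells of a stage and less RNA per cell cannot be told apart.

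**Figure D1:**
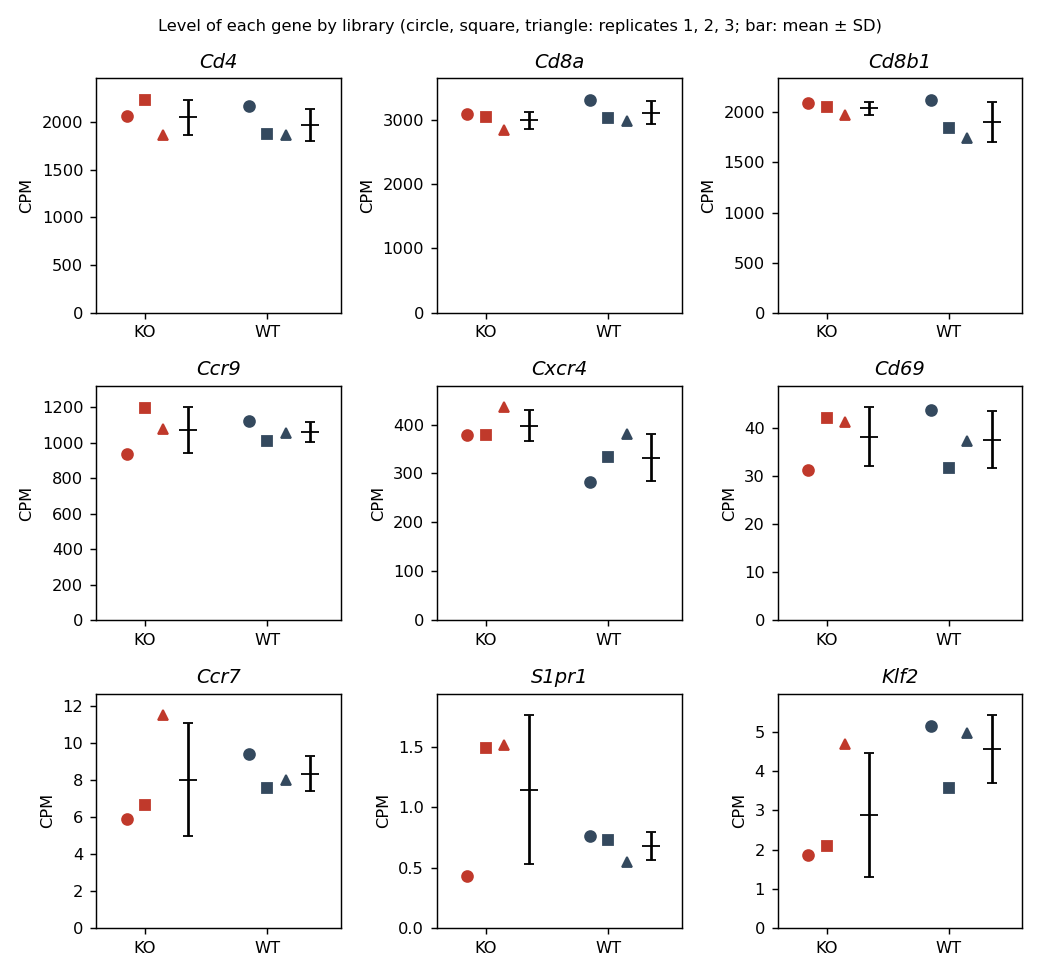
CPM of each of the 9 genes (vertical axes, linear from 0) in KO libraries (left of each panel) and WT libraries (right), with replicates 1, 2 and 3 as circle, square and triangle and the mean ± SD beside them. The groups overlap in all 9 panels; KO replicate 3 stands apart from the other KO libraries for Ccr7 and Klf2, and KO replicate 1 for S1pr1.

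None of the 9 genes passed the threshold of 0.05 on the adjusted p in edgeR's quasi-likelihood test. The count was also 0 with DESeq2 and 0 with limma-voom. Over the 13039 genes tested, edgeR called 0.0383% (0.00767% higher and 0.0307% lower in KO), DESeq2 0.675% and limma-voom 0.0537%. At an unadjusted p under 0.05 edgeR gave 0 of the 9 genes (6.72% of all genes tested), while DESeq2 (6.84% of all genes) and limma-voom (6.82%) each gave 1, which was Cxcr4. The 3 KO libraries lay wholly above or wholly below the 3 WT libraries for 0 of the 9 genes, against 12.6% of all genes tested. Without WT replicate 1 edgeR again called 0 of the 9 genes at an adjusted p under 0.05, and 1 (Cd8b1) had an unadjusted p under 0.05. The share of all genes with such a p was not counted for that fit. The median log2 fold change of the 9 genes was 0.023, beside -0.0040 for all genes tested. A p above the threshold does not show that a gene was unchanged, so the 95% interval of each fold change is given with it.

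Cd4 (chromosome 6, 124864692 to 124888221) encodes the coreceptor that binds MHC class II. Its level was 2059.9, 2230.1 and 1864 CPM in KO libraries, against 2166, 1874 and 1866 CPM in WT libraries. KO replicate 3 lay just below the lowest WT library, and WT replicate 1 lay between the higher KO libraries. The log2 fold change was 0.059 (SE 0.093, 95% interval -0.16 to 0.28, edgeR adjusted p = 0.915). Leaving out 1 library gave values from 0.0031 (without KO replicate 2) to 0.13 (without WT replicate 1).

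Cd8a (chromosome 6, 71373427 to 71379171) encodes the alpha chain of the coreceptor that binds MHC class I. It was at 3089, 3043 and 2846 CPM in KO libraries, against 3316, 3038 and 2987 CPM in WT libraries. The groups overlapped, with the highest value in WT replicate 1 and the lowest in KO replicate 3. Its log2 fold change was -0.057 (SE 0.071, 95% interval -0.22 to 0.11, edgeR adjusted p = 0.887), and ranged from -0.079 without WT replicate 3 to -0.0095 without WT replicate 1.

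Cd8b1 (chromosome 6, 71322836 to 71337477) encodes the beta chain that pairs with the alpha chain on thymocytes, and it lies 36.0 kb from Cd8a. It was at 2094, 2055 and 1971 CPM in KO libraries, against 2127, 1847 and 1745 CPM in WT libraries. All 3 KO libraries lay above WT replicates 2 and 3 and below WT replicate 1. The log2 fold change was 0.098 (SE 0.085, 95% interval -0.10 to 0.30, edgeR adjusted p = 0.840), 0.18 without WT replicate 1 (unadjusted p = 0.0246, adjusted p = 0.582) and 0.045 without WT replicate 3. Across the 3 coreceptor chains the intervals reached 0.857-fold at their lowest end (Cd8a) and 1.23-fold at their highest (Cd8b1).

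Ratios within a library do not depend on how libraries are scaled. The ratio of Cd8a to Cd8b1, per kilobase, was 0.699, 0.702 and 0.685 in KO libraries, against 0.739, 0.780 and 0.812 in WT libraries. Every KO value was below every WT value, and the KO libraries were closer to each other than the WT libraries were. On the log2 scale the difference was -0.16, between -0.52 ± 0.020 in KO and -0.37 ± 0.068 in WT (SD, n = 3 each). An exact permutation test (two-sided) returned p = 0.1, the smallest that 3 against 3 libraries allow (0.25 after Benjamini-Hochberg adjustment over 5 ratios). The ratio of Cd4 to Cd8a was 0.671, 0.738 and 0.659 in KO libraries, against 0.657, 0.621 and 0.629 in WT libraries. All 3 KO libraries again lay on 1 side, here above, although KO replicate 3 and WT replicate 1 nearly touched (log2 difference 0.12, exact permutation p = 0.1, 0.25 adjusted). These ratios share Cd8a and are not independent of each other.

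**Figure D2:**
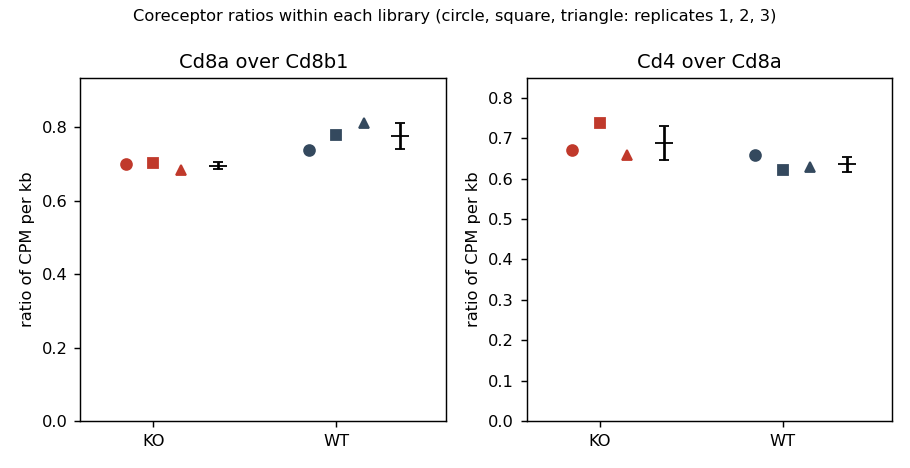
Ratios of CPM per kb within each library, Cd8a over Cd8b1 (left panel) and Cd4 over Cd8a (right panel), for KO and WT libraries, with replicates 1, 2 and 3 as circle, square and triangle and the mean ± SD beside them. The KO libraries sit at 0.685 to 0.702 in the left panel, below WT libraries at 0.739 to 0.812, and at 0.659 to 0.738 in the right panel, above WT libraries at 0.621 to 0.657.

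Of the chemokine receptors of the double-positive stage, Ccr9 (chromosome 9, 123678439 to 123783457) was at 939.7, 1197 and 1077 CPM in KO libraries, against 1124, 1012 and 1053 CPM in WT libraries. The KO libraries included both the lowest and the highest of the 6 values. Its log2 fold change was 0.011 (SE 0.097, 95% interval -0.21 to 0.23, edgeR adjusted p = 0.986), and its sign turned without KO replicate 2 (-0.068) or WT replicate 2 (-0.023). The gene model of Ccr9 shares exon sequence with Slc6a20a (0 or 1 counts per library), with the long noncoding RNA Gm17200 and with the transcript AC165425.1. Gm17200 had 0 counts in all 3 KO libraries, against 19, 6 and 1 in WT libraries. AC165425.1 had 3, 1 and 3 counts in KO libraries, against 11, 12 and 2 in WT libraries. These counts are small beside the 28338 to 38425 counts of Ccr9. Reads that HTSeq set aside as ambiguous are in none of them, so they do not measure the reads that fell in the shared exons. Lztfl1, on the opposite strand, lies within the span of Ccr9 with no shared exon sequence. The other 8 genes overlap no gene of GENCODE M21.

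Cxcr4 (chromosome 1, 128588199 to 128592293), the receptor for Cxcl12, had the lowest unadjusted p of the 9 genes (0.0531). It was at 378.9, 379.6 and 435 CPM in KO libraries, against 284, 333 and 380.4 CPM in WT libraries. All 3 KO libraries lay above WT replicates 1 and 2, and WT replicate 3 lay just above KO replicates 1 and 2, so the groups overlapped only through that library. The means were 398 ± 32.3 CPM in KO and 332 ± 48.5 CPM in WT (SD, n = 3 each). The fitted difference was 0.26 on the log2 scale (SE 0.11, 95% interval -0.0044 to 0.52, edgeR adjusted p = 0.733). Over all alternatives the adjusted p lay between 0.272 and 0.999. The difference was 0.16 without WT replicate 1, the library lowest for this gene and the one that stood apart from the rest, and 0.37 without WT replicate 3 (unadjusted p = 0.0108, edgeR adjusted p = 0.272). For Cxcr4 the authors' deposited table, from a DESeq2 fit named as paired, lists 0.27 on the log2 scale. Its unadjusted DESeq2 p is 0.00626 there and its adjusted p is 0.259.

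Cd69 (chromosome 6, 129267324 to 129275369), which is induced by T cell receptor signals and holds S1pr1 inside the cell, was at 31.2, 42.1 and 41.2 CPM in KO libraries, against 43.7, 31.7 and 37.3 CPM in WT libraries. High and low libraries occurred in both groups. Its log2 fold change was 0.023 (SE 0.15, 95% interval -0.33 to 0.38, edgeR adjusted p = 0.982). It was -0.033 without KO replicate 3, -0.045 without KO replicate 2 and -0.085 without WT replicate 2.

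Ccr7 (chromosome 11, 99144196 to 99155077), the receptor for the medullary chemokines Ccl19 and Ccl21, was at 5.90, 6.67 and 11.5 CPM in KO libraries, against 9.42, 7.60 and 8.03 CPM in WT libraries. KO replicates 1 and 2 lay below all WT libraries and KO replicate 3 above all of them. The SD was 3.05 CPM in KO and 0.954 CPM in WT (n = 3 each). The log2 fold change was -0.054 (SE 0.26, 95% interval -0.65 to 0.55, edgeR adjusted p = 0.976), and ranged from -0.41 without KO replicate 3 to 0.13 without KO replicate 1.

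Klf2 (chromosome 8, 72319033 to 72321656), a zinc-finger transcription factor of mature, quiescent T cells, had 56, 62 and 152 counts in KO libraries, against 176, 118 and 146 counts in WT libraries. In CPM this was 1.86, 2.10 and 4.71 in KO libraries, against 5.15, 3.57 and 4.99 in WT libraries. KO replicates 1 and 2 lay below every WT library, while KO replicate 3 lay within the WT range. The exact 95% Poisson intervals of the counts, which cover counting error only, were 42.3 to 72.7 and 47.5 to 79.5 for KO replicates 1 and 2, 129 to 178 for KO replicate 3, and 97.7 to 141 for the lowest WT library. The means were 2.89 ± 1.58 CPM in KO and 4.57 ± 0.868 CPM in WT (SD, n = 3 each). The fitted difference was -0.66 on the log2 scale (SE 0.37, 95% interval -1.51 to 0.20, edgeR adjusted p = 0.770). The value rested on which KO library was left out: it was -1.20 without KO replicate 3 (unadjusted p = 0.00268, adjusted p = 0.407), -0.42 without KO replicate 1 and -0.46 without KO replicate 2. Over all alternatives the adjusted p lay between 0.407 and 0.999. In the authors' deposited table Klf2 is at -0.77, with an unadjusted DESeq2 p of 0.0180 and 0.448 as its adjusted p.

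S1pr1 (chromosome 3, 115710433 to 115715055), the receptor whose signal draws mature cells out of the thymus, was the lowest of the 9 genes and lies 7.65 Mb from Mettl14 on the same chromosome. It had 13, 44 and 49 counts in KO libraries, against 26, 24 and 16 counts in WT libraries. In CPM this was 0.431, 1.49 and 1.52 in KO libraries, against 0.761, 0.727 and 0.547 in WT libraries. KO replicates 2 and 3 lay above every WT library and KO replicate 1 below all of them. The exact Poisson interval was 36.3 to 64.8 counts for KO replicate 3 and 17.0 to 38.1 counts for WT replicate 1, the highest WT library. The log2 fold change was 0.75 (SE 0.47, 95% interval -0.34 to 1.84, edgeR adjusted p = 0.782). It was 1.14 without KO replicate 1 (edgeR unadjusted p = 0.00829, adjusted p = 0.872), 0.53 without KO replicate 2 and 0.50 without KO replicate 3. Over all alternatives the adjusted p lay between 0.651 and 0.990.

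Klf2 and S1pr1 thus had fold changes of opposite sign, neither past the threshold. In KO replicate 2 S1pr1 was above every WT library while Klf2 was below every WT library. In KO replicate 1 both were below every WT library. The ratio of Klf2 to Cd69 per kilobase was 0.0544, 0.0455 and 0.104 in KO libraries, against 0.108, 0.103 and 0.122 in WT libraries, overlapping only through KO replicate 3 and WT replicate 2 (log2 difference -0.80, exact permutation p = 0.2, 0.333 adjusted over the 5 ratios). For S1pr1 over Cxcr4 the log2 difference was 0.30 (exact permutation p = 0.6, 0.75 adjusted) and for Ccr7 over Ccr9 it was -0.12 (exact permutation p = 0.8, also after adjustment), both with overlapping groups. Within KO, replicate 3 had the highest value of Ccr7, of Klf2 and of S1pr1. Il7r, the interleukin-7 receptor chain that mature thymocytes carry again, was also highest there, at 2.25, 2.27 and 4.59 CPM in KO libraries, against 2.87, 2.88 and 2.97 CPM in WT libraries (named after its values were seen).

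S1pr1 and Klf2 are also expressed by B cells and endothelial cells, so the levels of their markers are given beside them. The B cell gene Cd79a was at 0.597, 1.998 and 0.961 CPM in KO libraries, against 0.351, 0.454 and 0.307 CPM in WT libraries, and Ms4a1 at 0.0995, 2.10 and 1.12 CPM in KO libraries, against 0.263, 0.242 and 0.171 CPM in WT libraries (both named after their values were seen). In KO replicates 2 and 3 both genes and S1pr1 were above every WT library. In KO replicate 1 S1pr1 and Ms4a1 were below every WT library, while Cd79a was above every one. Klf2 was below every WT library in KO replicate 2 (2.10 CPM), where Cd79a and Ms4a1 were highest. None of the 5 defining B cell markers was at 0 in all libraries. Summed, they ranged from 797 to 844 CPM in KO and from 796 to 845 CPM in WT, nearly all of it Ighm, at 789 ± 30.3 CPM in KO and 808 ± 32.3 CPM in WT. The 10 stromal and endothelial markers summed to 157 to 169 CPM in KO and 157 to 184 CPM in WT. Most of that was Pecam1, at 153, 154 and 144 CPM in KO libraries, against 175, 152 and 149.8 CPM in WT libraries, while Krt5, Foxn1 and Pdgfra were at 0 and the endothelial cadherin gene Cdh5 had 0 to 2 counts per library (these 4 also named after their values were seen). The part of B cells in the S1pr1 difference was not tested.

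**Figure D3:**
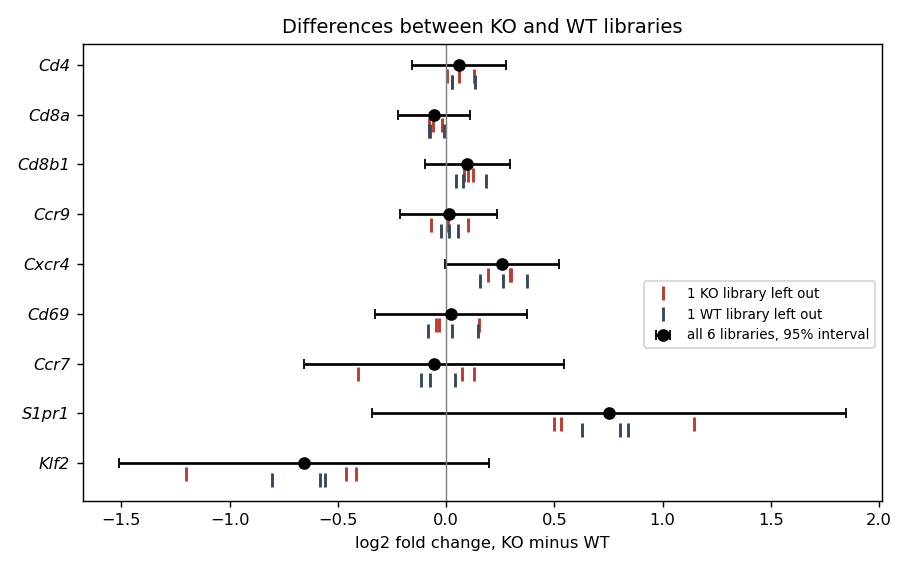
Log2 fold change, KO minus WT, of each gene in edgeR's fit on all 6 libraries (black points, with the 95% interval), with the values after leaving out 1 KO library (red ticks) or 1 WT library (dark blue ticks). All 9 intervals include 0, and the ticks spread furthest for Klf2 (-1.20 to -0.42) and S1pr1 (0.50 to 1.14).

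Because Mettl14 belongs to an m6A writer, the transcripts were searched for GGACT, a core motif around m6A, on the transcript strand. m6A was not measured here, and a match is a description of the letters only. All 9 principal transcripts held at least 1 GGACT, as did 92.0% of the 11268 tested genes with a protein-coding transcript. The density was 1.35 per kb in Cd8b1 and 0.639 per kb in Cd8a, 0.554 in Cxcr4, 0.541 in Klf2 and 0.328 in S1pr1, against a median of 1.05 per kb over those genes (quartiles 0.635 and 1.54). Across the 9 genes it ran from 0.192 per kb in Ccr9 to 1.52 per kb in Ccr7. The site nearest the stop codon is shown for the CD8 chains, whose ratio separated the groups, and for the 3 genes furthest from 0 in fold change. Cd4, whose ratio to Cd8a also separated the groups, held 4 sites (1.29 per kb) and is not shown. Each site shown is 21 bases, 5′ to 3′ on the transcript, read from GENCODE M21 transcripts, with the motif in capitals.
Cd8a: accggattGGACTtcgcctgt
Cd8b1: caataaaaGGACTgtaactca
Cxcr4: tgtgtgtaGGACTgtagaact
Klf2: aacgtgttGGACTtcatcctc
S1pr1: cttggtcaGGACTcgaagccg

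On mm10 these sites lie at chr6:71374767-71374787 (plus strand) in Cd8a, chr6:71336753-71336773 (plus) in Cd8b1, chr1:128588566-128588586 (minus) in Cxcr4, chr8:72319477-72319497 (plus) in Klf2 and chr3:115712246-115712266 (minus) in S1pr1. The motif is in the coding sequence of Cd8a, Klf2 and S1pr1, 175, 931 and 461 bases before the stop codon. It is in the 3′ UTR of Cd8b1 and Cxcr4, 41 and 267 bases after the start of the stop codon. Klf2, Cxcr4 and S1pr1 each had 1 site in the whole transcript, and Cd8a and Cd8b1 had 2 each.

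Other genes of the same stages and pathways were read from the same fit, in 9 lists. No gene of any of these lists passed the threshold over all genes tested in edgeR, DESeq2 or limma-voom (0 in each). Each list is described by its count and its median log2 fold change, beside -0.0040 for all genes tested, of which 6375 of 13039 lay above 0.

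Of the 13 genes of the double-positive stage, 10 had a fold change above 0, with a median of 0.050. An unadjusted edgeR p under 0.05 was found for 1 of the 13, against 6.72% of all genes tested. That gene was Aqp11, a water channel gene, at 238, 235 and 242 CPM in KO libraries, against 189.6, 197 and 227 CPM in WT libraries (log2 fold change 0.22, adjusted p = 0.713). Rag2, which encodes part of the receptor gene recombinase, was at 0.14, and Rmnd5a at 0.10. Of the 13 partners of the coreceptors, such as Lck, the CD3 chains and the receptor constant regions, 11 lay above 0, with a median of 0.067 and none with an unadjusted edgeR p under 0.05. The lowest p there belonged to Lat, the adaptor phosphorylated by Zap70, at 0.15, followed by Cd247 at 0.10 and Trbc2 at 0.081. Of 12 genes of the choice between the CD4 and CD8 lineages 9 lay above 0, with a median of 0.053 and no unadjusted p under 0.05. Among them Patz1 was at 0.18, Runx3, the factor that silences Cd4 in CD8 cells, at 0.23, and Gata3, which favours CD4 cells, at -0.10.

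Of 15 genes induced by receptor signals and positive selection, 8 lay above 0, with a median of 0.019. With upper-quartile scaling this median was -0.0045, and that of all genes tested was -0.027. None had an unadjusted edgeR p under 0.05. The inhibitory receptor gene Pdcd1 was at 0.55 (unadjusted p = 0.0534, edgeR adjusted p = 0.736) and the early response gene Egr2 at 0.24. Of 16 further genes of mature single-positive cells and egress, 12 lay above 0, with a median of 0.080. An unadjusted edgeR p under 0.05 was found for 2 of the 16, against 6.72% of all genes tested. Bcl2, the survival factor that mature thymocytes regain, was at 26.1, 23.5 and 29.6 CPM in KO libraries, against 21.5, 21.2 and 21.4 CPM in WT libraries. All 3 KO libraries lay above all WT libraries (log2 fold change 0.31, edgeR adjusted p = 0.705). The MHC class Ib gene H2-Q7 was at 5.50, 39.9 and 7.47 CPM in KO libraries, against 2.14, 6.90 and 2.36 CPM in WT libraries (log2 fold change 2.21, edgeR adjusted p = 0.713). KO replicate 2 stood far above the rest, and H2-Q7 shares sequence with near-identical neighbours, so its count is uncertain. Slfn1 was at 0.51.

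Of 17 chemokine receptors other than Ccr7, Ccr9 and Cxcr4, 12 were too low to test, 4 of them with 0 counts in all libraries, and none of the 12 passed 1.32 CPM in any library. Of the 5 tested, 2 lay above 0, with a median of -0.11. Ccr4 was at 24.1, 30.1 and 31.0 CPM in KO libraries, against 36.0, 30.4 and 25.7 CPM in WT libraries, and Cxcr2 (-0.80) and Cxcr6 (0.68) were under 1 CPM in every library. Of 11 genes of sphingosine-1-phosphate receptors and handling 8 were tested and 5 lay above 0, with a median of 0.097. S1pr4 (0.16) had a mean of 27.7 CPM in KO and 24.9 CPM in WT, far above S1pr1, while Plpp3 (-1.05) and the transporter gene Spns2 (0.35) were below 1 CPM. Of 18 tested genes that carry receptor signals to movement, 15 lay above 0, with a median of 0.094. For 5 of them all KO libraries lay above all WT libraries and for 0 below, against 859 above and 779 below among the 13039 genes tested. An unadjusted edgeR p under 0.05 was found for 2 of the 18, against 6.72% of all genes tested. These were Pik3cg, a kinase gene downstream of G proteins, at 0.20, and Elmo1, the partner of the Rac activators, at 0.21, with edgeR adjusted p-values of 0.725 and 0.733. The integrin gene Itga4 was at 0.16.

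Among 10 tested Krüppel-like factors other than Klf2, of 16 listed, 5 lay above 0, with a median of 0.031. Klf10, a factor induced by TGF-beta, was at 73.2, 68.9 and 72.7 CPM in KO libraries, against 48.7, 56.5 and 67.6 CPM in WT libraries. All 3 KO libraries lay above all WT libraries, with a log2 fold change of 0.31 (unadjusted p = 0.0281, edgeR adjusted p = 0.713). Klf8 was at -0.74. Klf4 was at -1.55, which rested on WT replicate 1 at 4.13 CPM, since the other 5 libraries lay between 0.398 and 0.713 CPM.

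**Figure D4:**
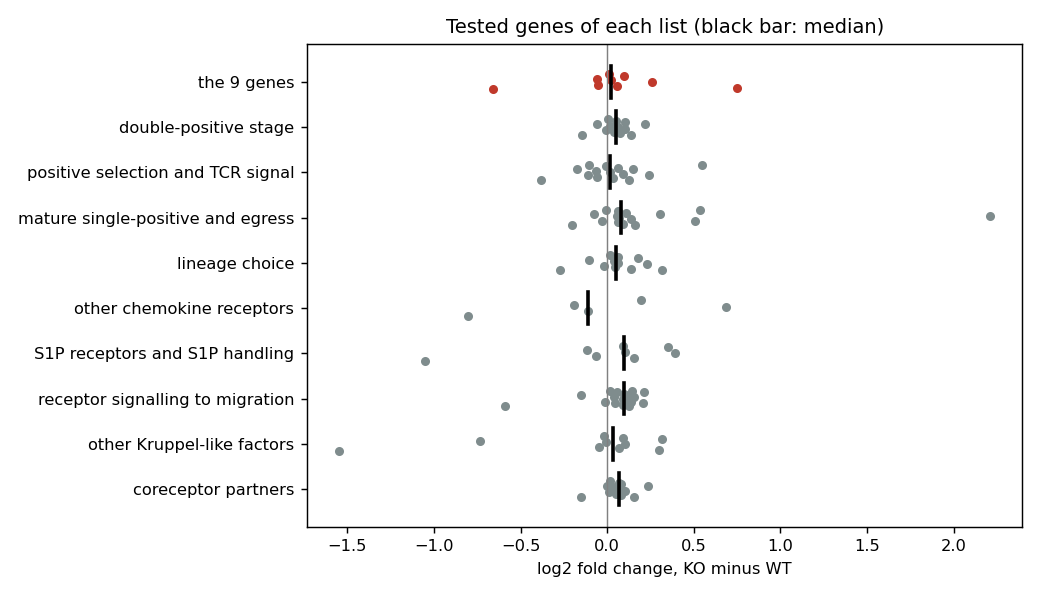
Log2 fold change, KO minus WT, of each tested gene of the 9 lists (grey points), below the 9 genes described here (red points), with each median as a black bar. List medians lie between -0.11 for the other chemokine receptors and 0.097 for the sphingosine-1-phosphate genes, and no gene shown passed the adjusted threshold.

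Markers of other thymic cells are given beside Ccr7, Klf2 and S1pr1, whose levels are low enough to come from few cells. No gene of the 6 marker lists passed the threshold in edgeR. The 11 markers found of double-negative and gamma-delta cells summed to 279.8, 206 and 238 CPM in KO libraries, against 181, 180.3 and 172 CPM in WT libraries. Of the 10 tested, 7 had an unadjusted edgeR p under 0.05 and lay higher in KO and 1 lay lower, against 6.72% of all genes tested (444 higher and 432 lower in KO). The highest, Notch3, was at 157, 110.3 and 142 CPM in KO libraries, against 101, 99.2 and 96.0 CPM in WT libraries. The NK list summed to 51.8, 46.2 and 54.3 CPM in KO libraries, against 33.2, 43.2 and 46.3 CPM in WT libraries, mostly Gzma. The myeloid and dendritic list summed to 91.1, 123 and 107 CPM in KO libraries, against 88.0, 94.3 and 93.7 CPM in WT libraries, with Cst3 the highest member. Red cell markers summed to less than 1 CPM in every library, led by Hbb-bs. At an unadjusted edgeR p under 0.05 the counts were 2 of 5 tested B cell markers, 2 of 7 myeloid, 1 of 4 NK and 2 of 5 stromal ones, all higher in KO, against the same 6.72% of all genes tested. KO replicate 3, the highest KO library for Ccr7, Klf2 and S1pr1, was the highest KO library in the NK and red cell sums and in no other of these sums. The part of these cell types in the values of Ccr7, Klf2 and S1pr1 was not tested.

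For the 3 genes Cd69, Klf2 and S1pr1, the genes with the most similar pattern over the 6 libraries were sought among the 9034 genes whose average log2 CPM was 3 or more. The measure was the root mean square difference of log2 CPM, each gene centred on its own mean, so that smaller is closer. Before taking logs 2 counts were added to each value, which matters most for genes with few counts such as S1pr1. Since the search used the libraries of both groups, it describes these libraries only. Klf2 was closest to Pvr, a nectin-family adhesion gene (difference 0.13, against a spread of Klf2 around its own mean of 0.58). Pvr was at 38.7, 49.2 and 123 CPM in KO libraries, against 118, 82.6 and 133 CPM in WT libraries. KO replicates 1 and 2 were again low and KO replicate 3 within the WT range. Cyth3 (0.24) and Cyp4f16 (0.25) followed. S1pr1 was closest to Gimap4 (0.36), Ms4a4b (0.37) and Gpr174 (0.38), against a spread of 0.63 of its own, so the likeness was weak. Cd69 was closest to Glipr1 (0.041), Stx7 (0.057) and Tpd52 (0.057), against a spread of 0.19.

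**Figure D5:**
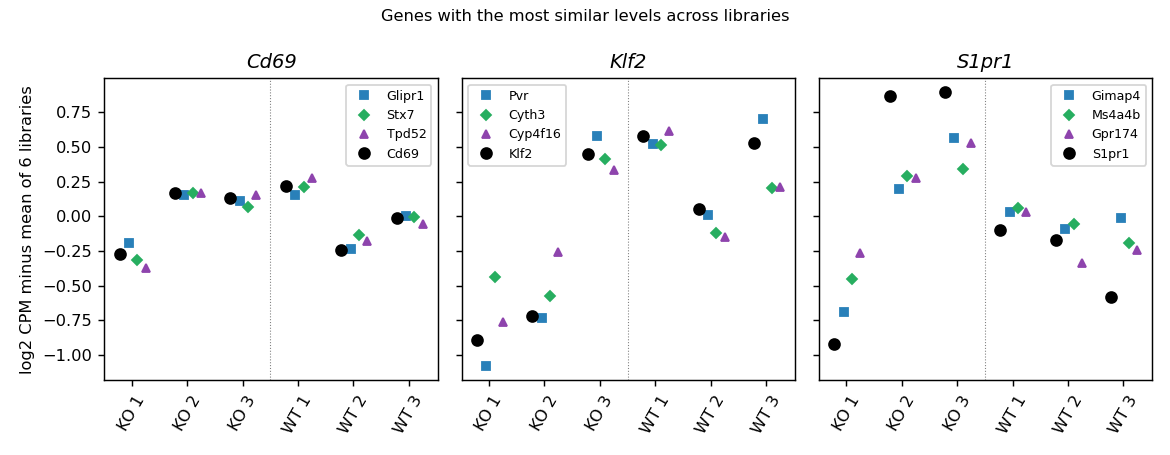
Log2 CPM centred on each gene's mean over the 6 libraries (vertical axes), for Cd69, Klf2 and S1pr1 and for the 3 genes closest to each, in KO libraries (left) and WT libraries (right). The points are drawn without the added counts used in the search. The points of Klf2 and Pvr lie close together, low in KO replicates 1 and 2, while the neighbours of S1pr1 vary less than S1pr1 itself.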

How the data were processed

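RNA-seq libraries of sorted double-positive thymocytes (3 KO, 3 WT) were compared. The submitters' processing notes name mm10 and the tools DESeq2, HTSeq, Trimmomatic 0.33 and STAR 2.5.2. How HTSeq was set (mode, strand, annotation) is not stated there, so overlapping genes cannot be separated with certainty. The authors deposited raw counts per gene, per library and as a combined table with the same 43430 rows. Their normalized signal, which the authors made by dividing each count by 1 size factor per library, served to find the 9 genes by symbol. The authors' deposited log2 values and p-values are results of their DESeq2 fit, which the file names as paired; what was paired is not stated. The score in that table, the authors' deposited test statistic, was not used. The authors' deposited gene length exceeds the gene's span for 1982 genes, so levels between genes were set per kilobase of the GENCODE M21 transcript, a departure from the planned use of the deposited length.

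Counts were tested with edgeR 4.0.16 in R 4.3.3 (TMM, filterByExpr, group as the sole term, two-sided quasi-likelihood test, threshold 0.05 after Benjamini-Hochberg adjustment over 13039 genes). Standard errors were derived from the fold change and its F statistic. Ratios were compared by exact permutation. DESeq2 1.42.0, limma-voom (limma 3.58.1), other scalings, no filter, blocks and leaving out each library were alternatives. On simulated counts edgeR recovered 39.5% of 1.5-fold, 61.4% of 2-fold and 87.1% of 4-fold changes, with 4 false calls among 125. Many changes of 2-fold or less would therefore be missed. Replicates differed by more than sampling noise.

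The 9 genes, the lists and the tests were chosen with earlier results of these data known. By rule the text names the 9 genes, Mettl14, the 3 genes of lowest p in each of 9 lists, the most abundant of each of 6 marker lists, the 3 genes most like Cd69, Klf2 and S1pr1, and genes that overlap one of the 9; others are marked as named after their values were seen. Of 43430 identifiers, 42462 matched the name table. The depth, given with the results, limits Klf2 and S1pr1 most.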

Additional observations from a re-analysis of the deposited data

How the results depend on the processing

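None of the 9 genes was called under any of 13 alternatives. Of 117 fold changes under alternatives, 108 kept their direction and 9 reversed, all of them of Ccr9, Ccr7 or Cd69, and adjusted p-values lay between 0.272 and 0.999. Ccr9 turned to -0.011 with upper-quartile scaling. Leaving out 1 library gave -0.068 to 0.10 for Ccr9, -0.085 to 0.15 for Cd69 and -0.41 to 0.13 for Ccr7 (log2 fold changes), and log2 differences of -0.40 to 0.067 for the ratio of Ccr7 to Ccr9 and -0.029 to 0.86 for that of S1pr1 to Cxcr4. The ratios of Cd8a to Cd8b1 (-0.19 to -0.13) and Cd4 to Cd8a (0.066 to 0.15) kept their sign. The number of genes called over all genes was 5 in edgeR, 88 in DESeq2, 30 with no filter on low counts and 4 to 23 without 1 library; the cause was not tested. Same-numbered KO and WT libraries deviated with correlations of -0.26, 0.062 and 0.32, and replicate 3 alone correlated best with its own number. Such correlations, of deviations centred within groups of 3 libraries, cannot decide whether the libraries were paired. They were not taken as pairs in the main fit because the labels state no shared animal, although the authors' file is named as paired. With the replicate number as a block the count was 5, and 0 of the 9 genes were called; Cxcr4 was then at 0.27 (unadjusted p = 0.0172, edgeR adjusted p = 0.756). With a block setting replicates 1 and 2 apart from 3, Cxcr4 (0.26, adjusted p = 0.548) and Klf2 (-0.77, adjusted p = 0.631) had an unadjusted edgeR p under 0.05. The share of all genes tested with such a p was not counted for the fits with a block, so these genes cannot be set against it. The low counts of S1pr1 and Klf2 leave wide intervals.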
